A study of Mus musculus with 4 samples.

Results

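The Zic genes and a set of granule neuron transcription factor genes were followed across the arrays of a cerebellum study in mice. The genes were chosen by name, with earlier results of these data known. They are Zic1, Zic2, Zic4, Zic5, Pax6, Neurod1, Neurod2, Etv1 and Barhl1. A probe set carried the gene symbol for 8 of the 9, of 19505 gene symbols on the array, and no probe set used here carried the symbol Neurod1. Each of the 8 had 1 probe set, so no choice between probe sets was needed.

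Exposed mice were male C57BL/6N, 10 weeks old, and received the neonicotinoid insecticide clothianidin by mouth at 50 mg per kg per day for 4 days (n = 2 arrays, replicates 6 and 7). Control mice of the same strain, sex and age received vehicle for 4 days (n = 2 arrays, replicates 7 and 9). Animals of both groups were also run on the rotarod, a test of motor coordination, over those days, and brains were taken right after it. RNA came from whole cerebellum, so a difference in the number of cells of a type and a difference in RNA per cell cannot be told apart, and granule neurons were not separated from other cells. Nothing in the labels says that the arrays of a group came from separate mice, so each p-value covers the spread among these arrays only, and that spread may be technical.

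Zic proteins are zinc finger transcription factors of the neural tube and the dorsal hindbrain. In the mouse cerebellum Zic1 and Zic2 are made in granule cell precursors and stay on in mature granule neurons, the most numerous neurons of the brain. Pax6 and Barhl1 are homeobox genes of the rhombic lip, the germinal zone from which granule cells arise. Neurod1 and Neurod2 encode basic helix-loop-helix factors that granule neurons need to differentiate and survive in mice. Etv1 encodes an ETS factor that takes part in the late maturation of mouse granule neurons.

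Promoter sequence is shown for Zic1, Zic5 and Neurod2, whose means were higher with clothianidin, and for Barhl1, whose mean was lower. The windows run from 250 bases before to 50 bases after an annotated start and are RefSeq sequence of GRCm38.p6, printed 5′ to 3′ on the strand of the gene. Of the 9 genes, 8 had at least 1 window, all but Zic2, with 11 windows in all. Capitals mark E-boxes, the letters CANNTG, which basic helix-loop-helix proteins such as the Neurod factors bind.
Zic1, chr9:91365719-91366018, minus strand: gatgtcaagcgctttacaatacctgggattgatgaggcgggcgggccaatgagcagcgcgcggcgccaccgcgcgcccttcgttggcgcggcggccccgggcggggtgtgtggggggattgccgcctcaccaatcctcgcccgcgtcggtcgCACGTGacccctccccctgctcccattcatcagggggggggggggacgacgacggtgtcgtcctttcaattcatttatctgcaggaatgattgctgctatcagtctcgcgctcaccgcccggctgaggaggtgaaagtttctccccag
Zic5, chr14:122465609-122465908, minus strand: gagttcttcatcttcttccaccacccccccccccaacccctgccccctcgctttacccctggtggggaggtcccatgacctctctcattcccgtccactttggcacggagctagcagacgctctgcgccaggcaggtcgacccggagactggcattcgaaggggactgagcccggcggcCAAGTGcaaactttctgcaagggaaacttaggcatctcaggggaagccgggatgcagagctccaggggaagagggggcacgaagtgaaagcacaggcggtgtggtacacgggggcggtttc
Neurod2, chr11:98329596-98329895, minus strand: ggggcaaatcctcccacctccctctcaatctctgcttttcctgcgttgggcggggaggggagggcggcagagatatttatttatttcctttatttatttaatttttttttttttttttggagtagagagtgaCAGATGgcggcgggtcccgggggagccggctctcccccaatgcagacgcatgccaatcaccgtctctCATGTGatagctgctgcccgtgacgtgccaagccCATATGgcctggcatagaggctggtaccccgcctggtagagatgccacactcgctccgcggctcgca
Barhl1, chr2:28916619-28916918, minus strand: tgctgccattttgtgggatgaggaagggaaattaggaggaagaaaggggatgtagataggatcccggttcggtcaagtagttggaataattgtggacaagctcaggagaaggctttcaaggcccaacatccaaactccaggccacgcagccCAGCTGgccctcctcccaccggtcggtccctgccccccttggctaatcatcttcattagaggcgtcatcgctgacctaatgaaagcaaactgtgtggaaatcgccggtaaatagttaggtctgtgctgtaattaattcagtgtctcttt

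The motifs were searched on both strands and their matches are a description of these letters alone. CANNTG was found in 72.3% of the 32851 promoter windows of the table. It occurred 3 times in the Neurod2 window and 1 time in each of the Zic1, Zic5 and Barhl1 windows above. The upstream window of Pax6 (chr2:105668646-105668945) held it 0 times, as did the upstream window of Etv1. There were 3 matches in the downstream window of Etv1, 2 in Zic4 and 2 in the other Barhl1 window. Neurod1 and the downstream window of Pax6 had 1 each. The narrower form CATCTG, found in 17.2% of all windows and overlapping CANNTG, occurred 1 time in Neurod2 and 1 time in the downstream window of Etv1 (chr12:38783461-38783760). The GC box GGGCGG, found in 35.7% of all windows, occurred 4 times in Neurod1, 3 times in Zic1, 2 times in Neurod2 and 1 time in Zic5. It occurred 0 times in the windows of Barhl1, Zic4, Pax6 and Etv1. CCAAT, found in 37.4% of all windows, occurred 2 times each in Zic1 and Neurod2 and 1 time in the upstream window of Pax6. The Zic core CAGCAGG, found in 10.5% of all windows, matched 0 of the 11 windows. The Zic1 window was rich in CpG dinucleotides, with 31 against a median of 7 over all windows. Zic5 had 15, Neurod2 16, Zic4 8 and the printed Barhl1 window 9. Neurod1 had 26, the Pax6 windows 18 and 16, the other Barhl1 window 14 and the Etv1 windows 12 and 3.

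Array-wide values set the scale for what follows. Values are log2 probe set summaries, so a difference of 1 is a doubling, and all differences are clothianidin minus vehicle. No probe set of 22206 passed limma's adjusted p of 0.05 (0% called), 940 had an unadjusted limma p under 0.05 (4.23%), and a linear model without moderation called 8. Clothianidin arrays lay wholly above vehicle arrays for 15.1% of probe sets and wholly below for 15.5%. The median was 6.49 and 6.50 on the clothianidin arrays and 6.50 and 6.54 on the vehicle arrays. The spread of values was not the same: the SD over probe sets was 3.32 on clothianidin replicate 6 and 3.27 on clothianidin replicate 7, against 3.27 on vehicle replicate 7 and 3.17 on vehicle replicate 9. Bright probe sets ran slightly high and dim ones slightly low with clothianidin: the median log2 difference was 0.08 in the top 10% of level and -0.07 in the bottom 10%. The Purkinje cell gene Pcp2 was at 16.68 and 17.18 with clothianidin and 16.40 and 16.10 with vehicle. Of the markers of other brain regions, Emx1 was at 3.47 and 3.46 with clothianidin and 3.67 and 3.80 with vehicle. Tcf7l2 was at 9.94 and 9.11 with clothianidin and 11.70 and 9.69 with vehicle, and Neurod6 was at 7.34 and 7.95 with clothianidin and 7.49 and 7.74 with vehicle, so not every such marker was low.

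All 4 measured Zic genes had a higher mean with clothianidin, by log2 differences of 0.28 to 0.97 and a median of 0.55. The median over all probe sets was -0.01, and 48.1% of all probe sets had a difference above 0, or 58.4% of those at or above the median level. None of the 4 passed limma over all probe sets, each with an adjusted p of 0.997. For 2 of the 4, Zic2 and Zic5, both clothianidin arrays lay above both vehicle arrays, set against 15.1% of all probe sets, or 20.9% of those at or above the median level. With 4 genes, such a count says little beside that share.

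Zic2, a gene whose loss of function causes holoprosencephaly in humans and mice, stood at 14.75 and 14.07 on clothianidin replicates 6 and 7, against 13.64 and 13.25 on vehicle replicates 7 and 9. The groups did not overlap, and the gap between the lowest clothianidin and the highest vehicle value was 0.43. The means were 14.41 ± 0.48 with clothianidin and 13.45 ± 0.28 with vehicle (SD, n = 2 each). The log2 difference was 0.97, with a standard error (SE) of 0.33 and a 95% interval of 0.20 to 1.73, which is 1.95-fold with an interval of 1.15 to 3.31. Its unadjusted limma p was 0.0192 in the model fitted across all probe sets, and only 0.644% of probe sets had a larger difference upward, yet it did not pass adjustment (limma adjusted p = 0.997). Leaving out clothianidin replicate 6 gave 0.63, and leaving out clothianidin replicate 7 gave 1.31.

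Zic5, which lies beside Zic2 in the RefSeq annotation and has a role in neural crest and neural tube development in mice, had the tightest values of the family. It was at 10.05 and 9.96 with clothianidin and 9.37 and 9.57 with vehicle. The groups did not overlap, with a gap of 0.39. Zic5 differed by 0.54 on the log2 scale, with an SE of 0.27 and a 95% interval of -0.09 to 1.16 (limma adjusted p = 0.997). With single arrays left out it stayed between 0.44 without vehicle replicate 7 and 0.64 without vehicle replicate 9.

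Zic1, needed for normal growth and folding of the mouse cerebellum, was at 18.35 and 17.53 with clothianidin and 17.59 and 17.16 with vehicle. The groups overlapped, because clothianidin replicate 7 lay 0.06 below vehicle replicate 7. Its log2 difference of 0.57 had an SE of 0.35 and a 95% interval of -0.25 to 1.38 (limma adjusted p = 0.997). It depended on which array was kept. It was 0.16 without clothianidin replicate 6 and 0.35 without vehicle replicate 9, but 0.78 without vehicle replicate 7 and 0.98 without clothianidin replicate 7.

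Zic4, the neighbour of Zic1 and deleted together with it in some people with Dandy-Walker malformation of the cerebellum, was at 6.83 and 6.52 with clothianidin and 6.76 and 6.04 with vehicle. Here 1 vehicle array lay between the clothianidin values and the other was the lowest. Its log2 difference was 0.28, with an SE of 0.33 and a 95% interval of -0.49 to 1.04 (limma adjusted p = 0.997). Its sign turned without vehicle replicate 9, to -0.09. The mean level of Zic4 lay above that of 99.5% of the 1091 olfactory receptor probe sets, genes with little expression in brain, whose median was 4.09.

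**Figure D1:**
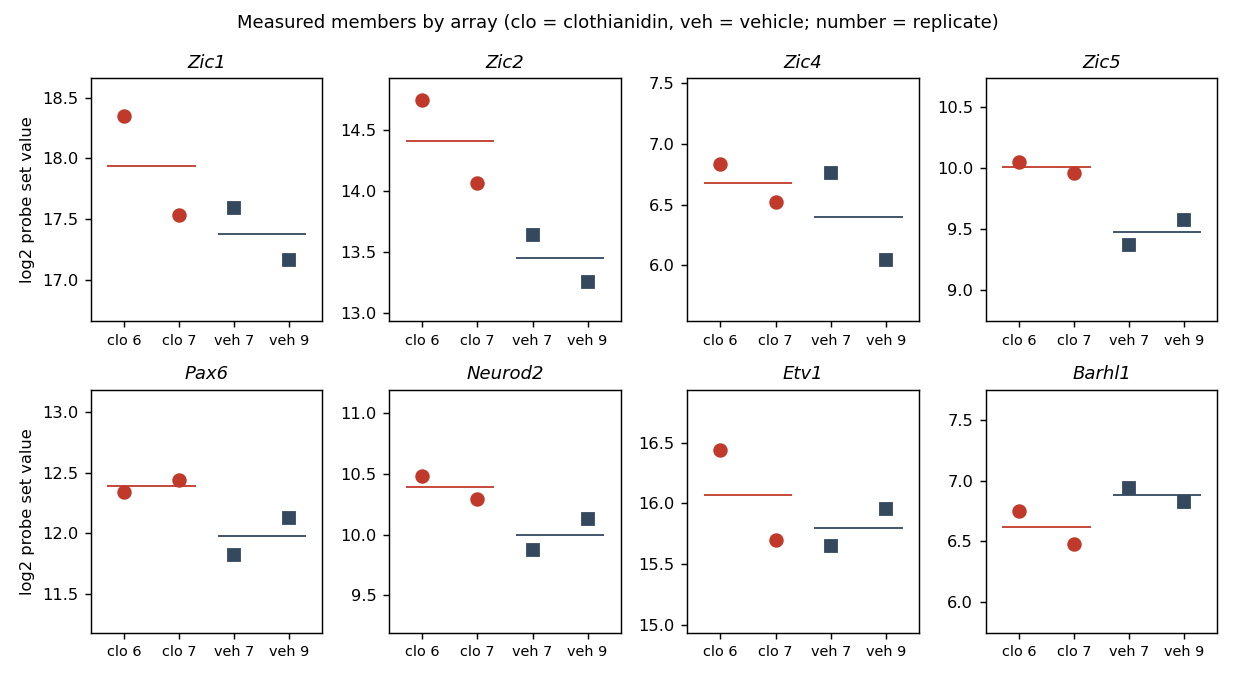
Log2 probe set values (y axis, each panel spans the same 2 log2 units) of the 8 measured genes on the clothianidin arrays (circles, replicates 6 and 7) and the vehicle arrays (squares, replicates 7 and 9), with group means as lines. Zic2, Zic5, Pax6 and Neurod2 have both clothianidin values above both vehicle values, Barhl1 has both below, and Zic1, Zic4 and Etv1 overlap.

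The other granule lineage factors were less uniform, with 3 of 4 measured genes higher and 1 lower and a median log2 difference of 0.33. None of these 4 passed limma over all probe sets (adjusted p = 0.997 for each). Clothianidin arrays lay wholly above vehicle arrays for 2 of them (15.1% of all probe sets, 20.9% of those at or above the median level). They lay wholly below for 1 (15.5% of all probe sets). Whether the Zic median of 0.55 differs from this 0.33 was not tested, and the ranges of the single differences, 0.28 to 0.97 for the Zic genes and -0.27 to 0.42 for the others, overlap.

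Pax6, which marks granule cells from the rhombic lip to the mature internal layer, was at 12.34 and 12.44 with clothianidin and 11.82 and 12.13 with vehicle. The groups were apart by 0.21, and the clothianidin arrays were close to each other. For Pax6 the log2 difference was 0.42, with an SE of 0.28 and a 95% interval of -0.22 to 1.05. Leaving out 1 array gave 0.26 to 0.57, the lowest without vehicle replicate 7.

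Barhl1, which supports survival and migration of granule cells in mice, was the only measured gene of the set with a lower mean. It was at 6.75 and 6.48 with clothianidin and 6.94 and 6.82 with vehicle, and the groups were apart by only 0.07. Its log2 difference was -0.27, with an SE of 0.27 and a 95% interval of -0.90 to 0.37. It ranged from -0.40 without clothianidin replicate 6 to -0.13 without clothianidin replicate 7.

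Neurod2 was at 10.48 and 10.29 with clothianidin and 9.87 and 10.13 with vehicle. Both clothianidin values were higher, with a gap of 0.16. The difference on the log2 scale was 0.39, with an SE of 0.28 and a 95% interval of -0.25 to 1.02, and it was 0.26 to 0.52 when 1 array was left out.

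Etv1, whose expression in mouse granule neurons depends on neuronal activity, was at 16.44 and 15.70 with clothianidin and 15.65 and 15.95 with vehicle. Vehicle replicate 9 lay between the clothianidin arrays, so the groups overlapped. Etv1 differed by 0.27 on the log2 scale, with an SE of 0.33 and a 95% interval of -0.50 to 1.04. It rested on clothianidin replicate 6, without which it was -0.10.

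**Figure D2:**
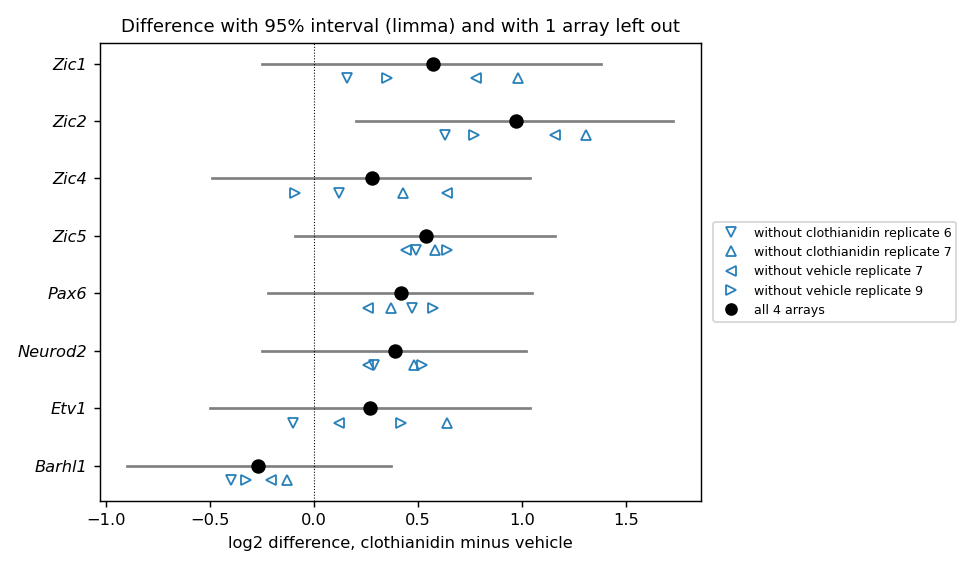
Log2 difference, clothianidin minus vehicle (x axis), of each measured gene with all 4 arrays (black points) and its 95% limma interval (grey lines), with the values after leaving out each array in turn (open triangles). Only the interval of Zic2, 0.20 to 1.73, lies wholly above 0 before adjustment, and Zic4 and Etv1 change sign when 1 array is left out.

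The genes fell into different patterns across single arrays. Clothianidin replicate 6 held the highest value for 6 of the 8 genes, all but Pax6 and Barhl1. Vehicle replicate 9 held the lowest value for Zic1, Zic2 and Zic4, while vehicle replicate 7 held the lowest for Zic5, Pax6, Neurod2 and Etv1. So the genes with higher means did not share 1 low vehicle array. The deviation of each gene from its own mean over the 4 arrays was then taken. Its median over the Zic family was 0.50 and 0.06 on clothianidin replicates 6 and 7. On vehicle replicates 7 and 9 it was -0.18 and -0.50. The other granule lineage factors had median deviations of 0.22 and -0.07 on the clothianidin arrays and -0.30 and -0.02 on the vehicle arrays.

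The arrays at both ends of the Zic pattern are also those with the widest and the narrowest spread of values. In the top 10% of level, which holds Zic1, Zic2, Pax6 and Etv1, the median deviation of all probe sets was 0.11 and -0.04 on clothianidin replicates 6 and 7, and 0.05 and -0.13 on vehicle replicates 7 and 9. These shifts run the same way as the Zic deviations on the outer arrays and are smaller. A further quantile normalization, which gives every array the same spread, left log2 differences of 0.86 for Zic2, 0.54 for Zic1, 0.45 for Zic5 and 0.30 for Zic4. The same step gave 0.32 for Pax6, 0.30 for Neurod2, 0.10 for Etv1 and -0.26 for Barhl1. The direction of all 8 stayed as before, and Etv1 shrank the most in proportion.

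**Figure D3:**
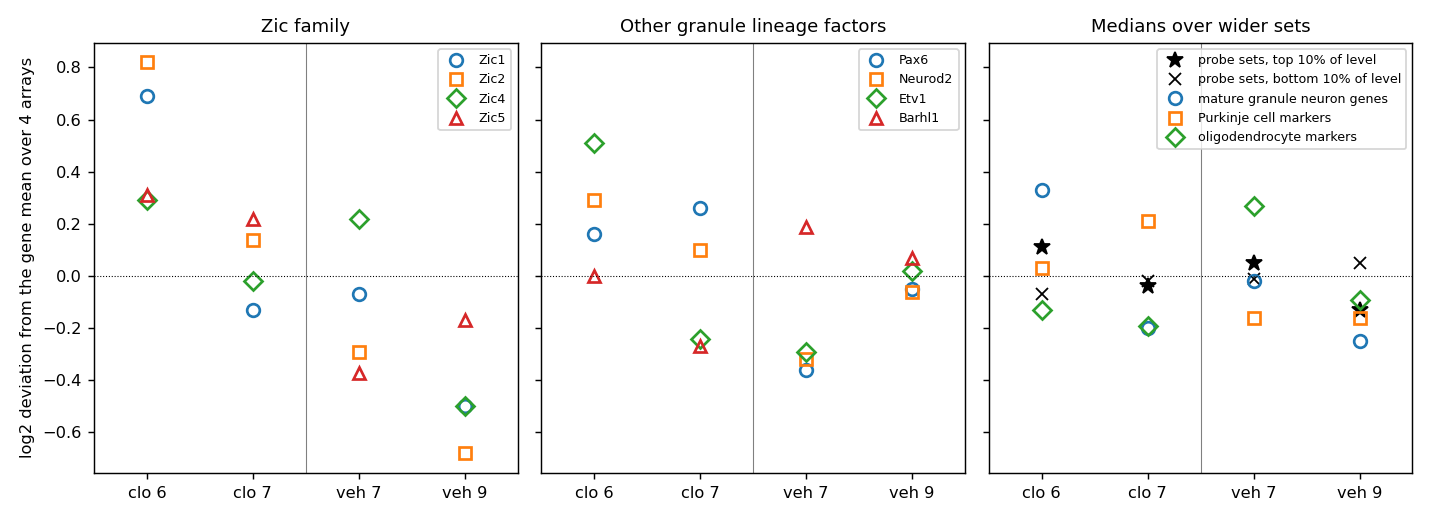
Log2 deviation of each gene from its own mean over the 4 arrays (y axis) by array (x axis, clo for clothianidin and veh for vehicle, number for replicate), for the Zic genes, the other granule lineage factors, and medians over wider sets. Zic1, Zic2 and Zic4 are lowest on vehicle replicate 9, and the top 10% of probe sets by level shifts the same way on clothianidin replicate 6 (0.11) and vehicle replicate 9 (-0.13).

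The Zic genes sit as neighbouring pairs in the RefSeq annotation of GRCm38.p6, Zic1 with Zic4 on chromosome 9 and Zic5 with Zic2 on chromosome 14. Members of 1 pair did not share an array pattern throughout: Zic2 was lowest on vehicle replicate 9 and Zic5 on vehicle replicate 7. The nearest measured genes on either side of the pairs had smaller or opposite differences. Next to Zic1 and Zic4, the log2 difference was 0.04 with an SE of 0.46 for Tbc1d2b and -0.26 with an SE of 0.27 for Plscr5. Next to Zic5 and Zic2 it was 0.09 with an SE of 0.29 for Clybl and -0.49 with an SE of 0.32 for Pcca. None of the 4 flanking genes passed limma (adjusted p = 0.997 for each).

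Profiles like that of Zic2 were sought among 9578 genes at or above the median level, by the Euclidean distance between log2 deviations over the 4 arrays. The 5 nearest were Fasn, Prex1 and Srgap1, each at a distance of 0.09, Rara at 0.12 and Kif1b at 0.14. Within the set, Zic1 was nearest to Zic2, at 0.41 and rank 138, followed by Zic5 at 0.73, Zic4 at 0.77 and Neurod2 at 0.82, while Barhl1 was farthest at 1.28. The 5 genes nearest to the mean Zic profile were Sidt1 at 0.04, Slc26a11 at 0.07, Fut9 at 0.08, the neurotrophin gene Bdnf at 0.08 and Brpf1 at 0.09. Over these 4 arrays 15 genes lay within 0.2 of the Zic2 profile and 125 within 0.2 of the Zic mean.

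Genes that act around these factors in the cerebellum had differences nearer 0 by median, which was not tested against the Zic genes. Of 23 measured further lineage regulators, 14 had higher and 8 lower means, the median log2 difference was 0.04, and 0 passed limma over all probe sets. Their clothianidin arrays lay wholly above for 3 genes (15.1% of all probe sets) and wholly below for 1 (15.5%). The nuclear factor gene Nfib, which acts in granule neuron maturation, was at 15.09 and 14.54 with clothianidin and 14.45 and 14.32 with vehicle, a log2 difference of 0.43 with an SE of 0.30. The differences were 0.33 for Sox11, 0.27 for the cyclin gene Ccnd2 and -0.43 for Nhlh1, and Nhlh1 was at 3.48 to 4.10 on all arrays, the level of olfactory receptor probe sets. Atoh1, the factor that specifies granule cell precursors and is switched off in adults, was at 3.19 and 4.12 with clothianidin and 3.57 and 4.05 with vehicle. Mycn, a driver of precursor division, was at 3.55 and 3.79 with clothianidin and 3.65 and 3.69 with vehicle. Like Nhlh1, both Atoh1 and Mycn lay at the level of olfactory receptor probe sets, so the list median includes dim genes. Barhl2, the paralog of Barhl1, was at 12.27 and 11.80 with clothianidin and 12.17 and 12.02 with vehicle, and its log2 difference of -0.06 had an SE of 0.29.

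Genes listed for the mature granule neuron, which include the earlier marker Cntn2, had higher means for 13 of 17 and lower for 4. All 17 lay at or above the median level, where 58.4% of probe sets had a difference above 0. The median log2 difference of this list was 0.22, or 0.09 after a further quantile normalization. Of its genes 0 passed limma over all probe sets. The arrays were wholly above for 5 (15.1% of all probe sets, 20.9% of those at or above the median level). They were wholly below for 0 (15.5% of all probe sets). Tiam1, a Rac exchange factor, was at 11.20 and 10.19 with clothianidin and 9.61 and 9.80 with vehicle, a log2 difference of 0.99. The cadherin gene Fat2 had 0.82, the adhesion gene Cntn2, which marks granule cells before they migrate, had 0.73, and the potassium channel gene Kcnk9 had 0.46. Without clothianidin replicate 6 these 4 values were 0.49, 0.41, 0.49 and -0.04. The mean level of the list was 13.97 and 13.40 on clothianidin replicates 6 and 7 and 13.52 and 13.31 on vehicle replicates 7 and 9, so the groups overlapped. Gabra6, the granule cell GABA receptor subunit gene, was at 17.05 and 17.40 with clothianidin and 17.41 and 17.09 with vehicle. Its log2 difference was -0.03 with an SE of 0.29, and that of the secreted synapse organiser gene Cbln3 was -0.24 with an SE of 0.32.

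Mean levels of the markers of other cell types are set beside these values, and their part in the Zic differences was not tested. Meninges and fibroblast markers, a tissue that also expresses Zic genes in mice, had 6 of 8 higher and a median log2 difference of 0.23, with mean levels of 10.16 and 10.14 on the clothianidin arrays and 10.17 and 9.79 on the vehicle arrays. The list mean was lowest on vehicle replicate 9, though not every gene of the list was lowest there. The top 10% of all probe sets by level was low on that array too, with a median deviation of -0.13. Dcn of this list had a log2 difference of 0.34. Purkinje markers had 6 of 9 higher and a median of 0.18 with a difference of 0.66 for Calb1. Clothianidin arrays lay wholly above for 6 of these 9 (15.1% of all probe sets, 20.9% of those at or above the median level). They lay wholly below for 0 (15.5% of all probe sets). Unipolar brush cell markers had 3 of 3 higher and a median of 0.20 with a difference of 0.87 for Eomes. The groups overlapped for Eomes, and leaving out vehicle replicate 7 gave a difference of 0.28, leaving out replicate 9 one of 1.45. Molecular layer and Golgi interneuron markers had 5 of 7 higher and a median of 0.09 with a difference of 0.60 for Kit, and mean levels of 11.76 and 11.17 on the clothianidin arrays and 11.37 and 11.29 on the vehicle arrays.

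Lists with lower medians were oligodendrocyte markers and forebrain and midbrain markers. Oligodendrocyte markers had 8 of 8 lower and a median log2 difference of -0.18, with a difference of -0.73 for the myelin gene Cnp. Forebrain and midbrain markers had 5 of 6 lower and a median of -0.32, with a difference of -0.76 for Emx2. Emx2 at 4.08 to 4.96 and Emx1 at 3.46 to 3.80 lay within the range of the olfactory receptor probe sets. The mean level of oligodendrocyte markers was 12.60 and 12.57 with clothianidin and 13.07 and 12.73 with vehicle. That of forebrain and midbrain markers was 5.90 and 5.74 with clothianidin and 6.46 and 6.05 with vehicle. Both were highest on vehicle replicate 7, as were endothelial markers at 9.97 and, narrowly, meninges and fibroblast markers at 10.17. Within the forebrain and midbrain list, Emx1 was highest on vehicle replicate 9 and Neurod6 on clothianidin replicate 7. Astrocyte and Bergmann glia markers had 4 genes higher and 4 lower and a median difference of 0.05, and Hopx of this list had 0.52. The median difference was -0.12 for microglia, with 2 of 6 genes higher and 4 lower. Aif1 had a difference of 0.93, but at 3.62 to 4.96 it lay within the range of the olfactory receptor probe sets. The median difference was -0.16 for endothelial cells, with 1 of 5 genes higher, 4 lower and a difference of -0.39 for Esam. It was -0.04 for brainstem and cerebellar nuclei, with 3 of 7 genes higher and 4 lower. In that list Th had a difference of 0.93, Slc17a6 of -1.02 and Hoxb3 of -0.48. Hoxb3, at 4.18 to 4.88, also lay within the range of the olfactory receptor probe sets. For choroid plexus the median difference was 0.26, with 4 of 6 genes higher and 2 lower. Folr1 had a difference of 0.88 at a level of 4.62 to 6.05, where the 95th percentile of olfactory receptor probe sets was 5.53. The choroid plexus gene Ttr differed between single arrays, at 6.38 and 13.96 with clothianidin and 5.70 and 5.67 with vehicle.

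**Figure D4:**
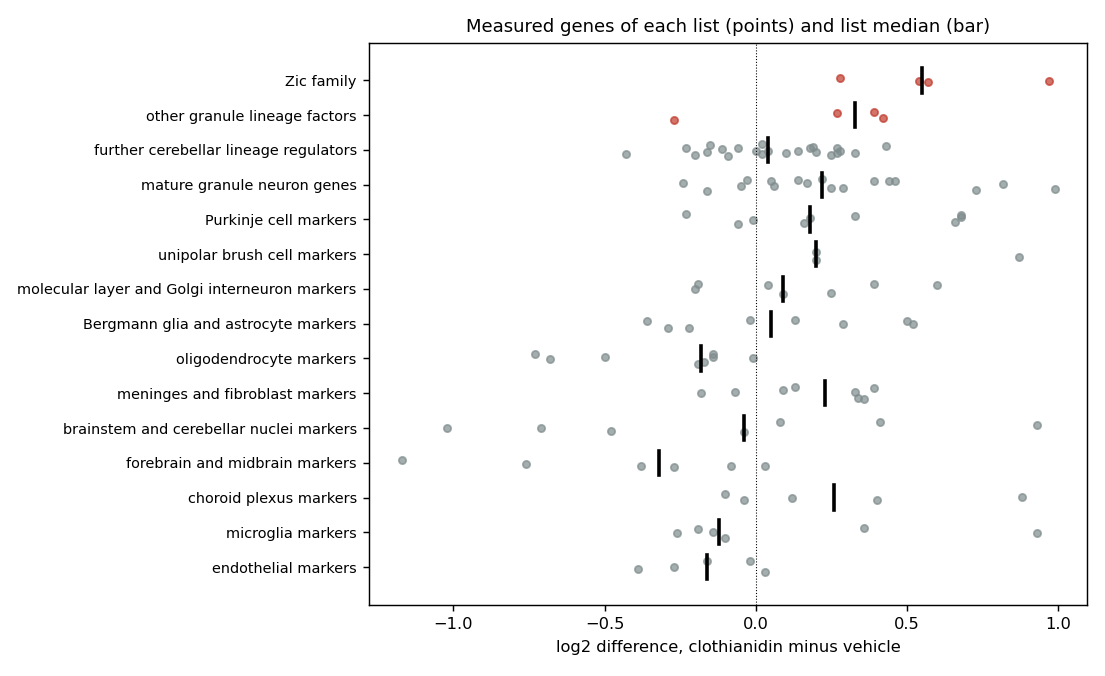
Log2 differences, clothianidin minus vehicle (x axis), of the measured genes of each list (points) with the list median (bar); Ttr of the choroid plexus list, at 4.49, lies outside the axis. The 4 Zic genes lie between 0.28 and 0.97 and the further lineage regulators between -0.43 and 0.43.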

How the data were processed

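Total RNA from 4 cerebellum samples was hybridised to Affymetrix whole-transcript arrays, 1 per sample, after GeneChip WT labelling, per the labels' protocols. The deposited values are log2 probe set summaries with 2 decimals that the authors made with RMA, per the submitters' processing notes. Version and settings of RMA are not given in the sources used here, and base 2 was taken from how RMA works. Scanner files were not analysed here, and the signal over background of a probe set is therefore not known. The number of arrays limits the precision.

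Of 22206 probe sets, 19572 had 1 gene symbol in a platform annotation that can be old, 0 had several and 2634 were not named by it; RefSeq gene identifiers (GRCm38.p6) changed 0 symbols. Probe sequences were not used here, so cross-hybridisation between Zic paralogs was not tested.

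All probe sets were fitted with limma 3.58.1 in R 4.3.3 (lmFit, eBayes, two-sided, Benjamini-Hochberg adjustment at 0.05), and the procedure was tested on simulated data. The median standard error of a difference was 0.298, at which a difference of 0.689 reaches an unadjusted p of 0.05. The members and gene lists were chosen with earlier results of these data known. Beyond members, the text names the 4 genes of each granule list and the leading gene of other lists with the smallest unadjusted p, and 5 nearest profiles; Gabra6, Cbln3, Atoh1, Mycn, Barhl2, Pcp2, Emx1, Tcf7l2, Neurod6, Slc17a6, Hoxb3, Ttr and the flanking genes are named outside that rule, after their values were seen. Alternatives were scaling, filters on level, 1 probe set per gene, other priors, no moderation and leaving out each array.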

Additional observations from a re-analysis of the deposited data

How the results depend on the processing

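No probe set passed limma at an adjusted p of 0.05 under median centring, a further quantile normalization, filters at the median or 25th percentile of level, 1 probe set per gene, or an intensity trend with a robust prior. Without moderation there were 8 calls, all with values identical within both groups, and 0 of them a member. Leaving out each array in turn gave 0 to 1 calls, the 1 being Ttr without clothianidin replicate 6. Of 88 member values under these alternatives 86 kept their direction. Level filters, 1 probe set per gene, other priors and no moderation leave a member's difference unchanged by construction. Only scaling and leaving out an array could turn a sign, and both exceptions came from leaving out an array. The exceptions were Zic4, at -0.09 without vehicle replicate 9 and up to 0.64 without other arrays, and Etv1, at -0.10 without clothianidin replicate 6 and up to 0.64. The cause was not tested. The Zic median stayed between 0.32 and 0.78 when 1 array was left out, at 0.58 after centring and 0.50 after quantile normalization. The median of the other granule lineage factors was 0.35 and 0.20 under these 2 scalings and 0.10 to 0.47 with 1 array left out, the lowest without clothianidin replicate 6. A fit that leaves out 1 array has a lone array in its group, taken to vary like the other group. No paired analysis was made. The groups share only replicate number 7, and the labels do not say that equal numbers mark a pair.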
